A study of Mus musculus with 12 samples.

Results

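Insulin-like growth factor (IGF) axis genes were followed in whole kidneys of Pod-TRECK mice after diphtheria toxin. The set holds 10 genes, namely the growth factor Igf1, the receptors Igf1r and Igf2r, and the binding proteins Igfbp1 to Igfbp7, out of 56722 genes in the count table. They were chosen by gene symbol at a time when their levels and fold changes in these data were already known. Their own values are therefore given as a description, with no p-value, and a gene that the fit across all genes called changed is counted beside the share of all genes called.

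TRECK stands for toxin receptor-mediated cell knockout, in which a cell type of the mouse is made sensitive to diphtheria toxin by a transgene. The groups were kidneys taken 5, 14 and 21 days after 100 ng of toxin given into the peritoneum, and control kidneys of mice that received no treatment, with 3 mice per group. All 4 groups carried the Pod-TRECK transgene, while the sources used here do not give its promoter, nor the age, sex or strain of the mice. Since controls had no injection, the toxin itself and the loss of podocytes cannot be told apart.

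IGF1 is made under the control of growth hormone and signals through the tyrosine kinase IGF1R to AKT and mTOR. Most secreted IGF is held by binding proteins, which lengthen its life and limit its access to the receptor until proteases cut them. In the kidney the axis is known for effects on growth, filtration and tubular repair. RNA levels, measured here, do not report secreted protein, and much circulating IGF1 comes from the liver.

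Libraries held between 31023852 and 46420299 counts. Levels below are CPM, read counts relative to library size, scaled by TMM factors, which ran from 0.778 in a control to 1.32 at day 14. Nphs1, which encodes the podocyte protein nephrin, fell to a mean of 1.51 CPM at day 5, against 22.2 CPM in controls (log2 fold change -3.88 ± 1.11 SE, adjusted p = 0.0381, edgeR quasi-likelihood test). It was between 0.268 and 0.614 CPM at day 14. At day 21, replicates 1 and 3 had 0.412 and 0.517 CPM, whereas replicate 2 had 16.5 CPM. Tubule markers were abundant in every library. Day-21 replicate 2 also stood apart across all genes, at -36.8 on the first principal component against 73.0 and 80.1 for the other 2 day-21 libraries, and with 21.1% of counts from mitochondrial genes against 11.8% in each of the other two. Day-21 fold changes of the 10 IGF axis genes are therefore given with and without day-21 replicate 2. Since whole kidneys were sequenced, fewer cells of a type and less RNA per cell cannot be told apart.

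All 10 genes passed the filter on low counts. Per kilobase of exon, Igfbp7 had by far the highest control level, 794 ± 25.3 CPM per kb (SD, n = 3). Igfbp4 followed at 110 ± 10.5, Igfbp3 at 65.3 ± 4.28, Igfbp5 at 49.8 ± 1.89, Igf2r at 13.1 ± 0.915 and Igf1r at 8.93 ± 0.199 CPM per kb, and no control library of one of these overlapped the next. Igfbp1 at 3.95 ± 1.43, Igfbp2 at 1.83 ± 1.20, Igf1 at 0.98 ± 0.272 and Igfbp6 at 0.88 ± 0.810 CPM per kb came last, and each overlapped its neighbour in that order.

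**Figure D1:**
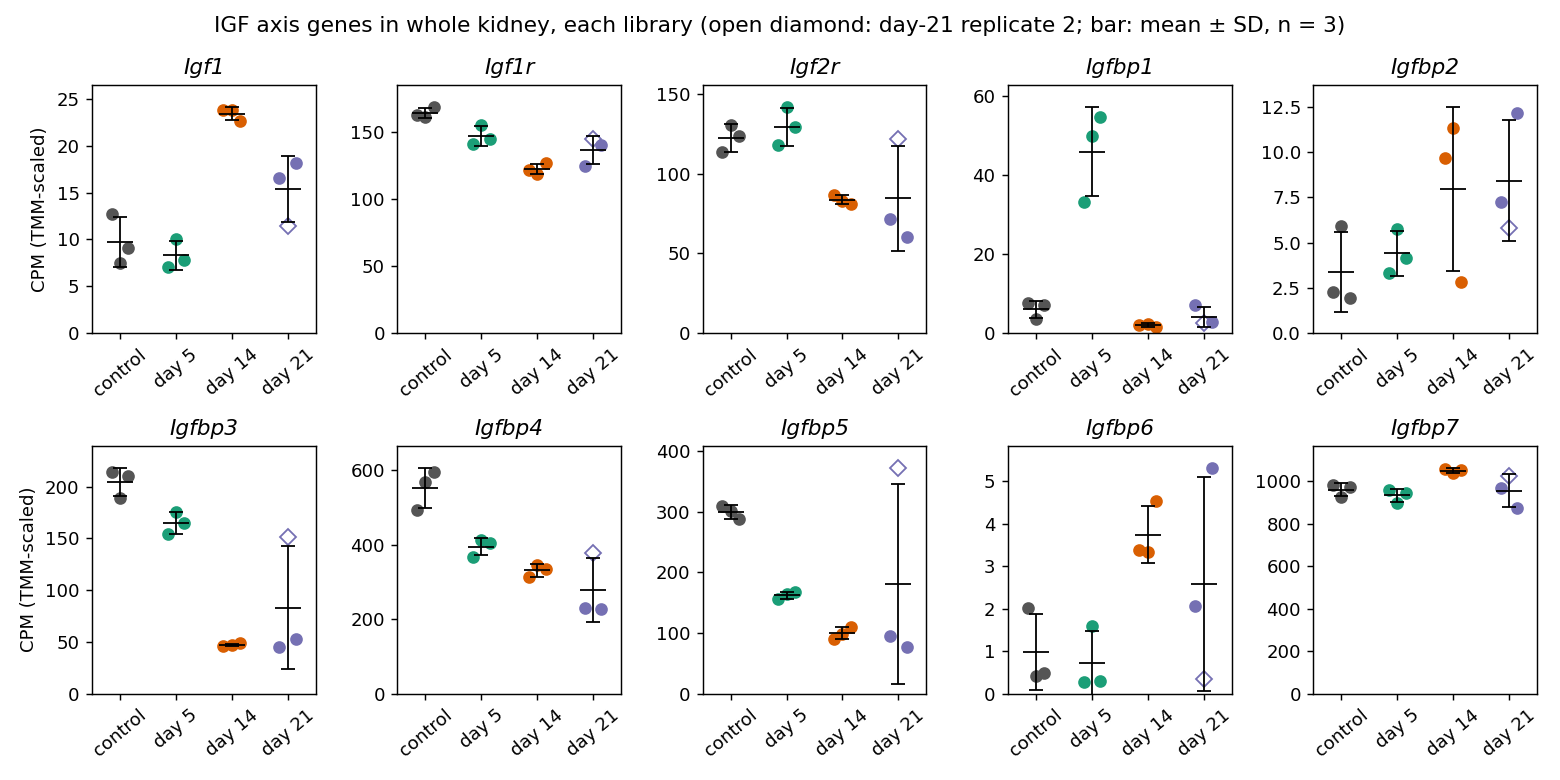
Level of each gene in the 12 libraries (TMM-scaled CPM, linear axes from 0), by group, with the mean and SD of 3 libraries; lower SD bars that would pass 0 end at the axis. Igfbp1 stands high in the 3 day-5 libraries, and the open diamond of day-21 replicate 2 lies apart from the filled day-21 points for Igfbp3, Igfbp5 and Igf2r.

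Beside controls, the set had 1 gene called at day 5, 7 at day 14 and 4 at day 21, at an adjusted p under 0.05 over all 19821 tested genes. At day 5 the called gene was Igfbp1, which rose, beside 14.9% of all tested genes called, 9.77% higher and 5.09% lower. At day 14, 1 rose and 6 fell, beside 60% called, 31.2% higher and 28.8% lower. At day 21, 1 rose and 3 fell, beside 42.8% called, 24.3% higher and 18.5% lower. The median log2 fold change of the 10 was -0.19 at day 5, -0.49 at day 14 and -0.40 at day 21, where the medians of all tested genes were 0.00, 0.08 and 0.07. In 5, 9 and 3 of the 10 genes the libraries of the day and of the controls did not overlap, beside 49%, 72.9% and 45.2% of all genes.

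Fits without day-21 replicate 2 called 4 of the 10 at day 5, 8 at day 14 and 8 at day 21, beside 32.3%, 65.6% and 61.6% of all genes. These comparisons share their control libraries. With counts scaled by library totals alone, the centre (median) of all log2 fold changes moved by 0.14 at day 5, 0.73 at day 14 and 0.49 at day 21. Of the called genes, 77.7%, 85.6% and 88.3% were then higher than in controls, against 65.7%, 52.1% and 56.8% with TMM factors. Directions below are therefore relative to the bulk of genes. For the 10 genes, values called with either scaling that turn under library totals are named below.

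**Figure D2:**
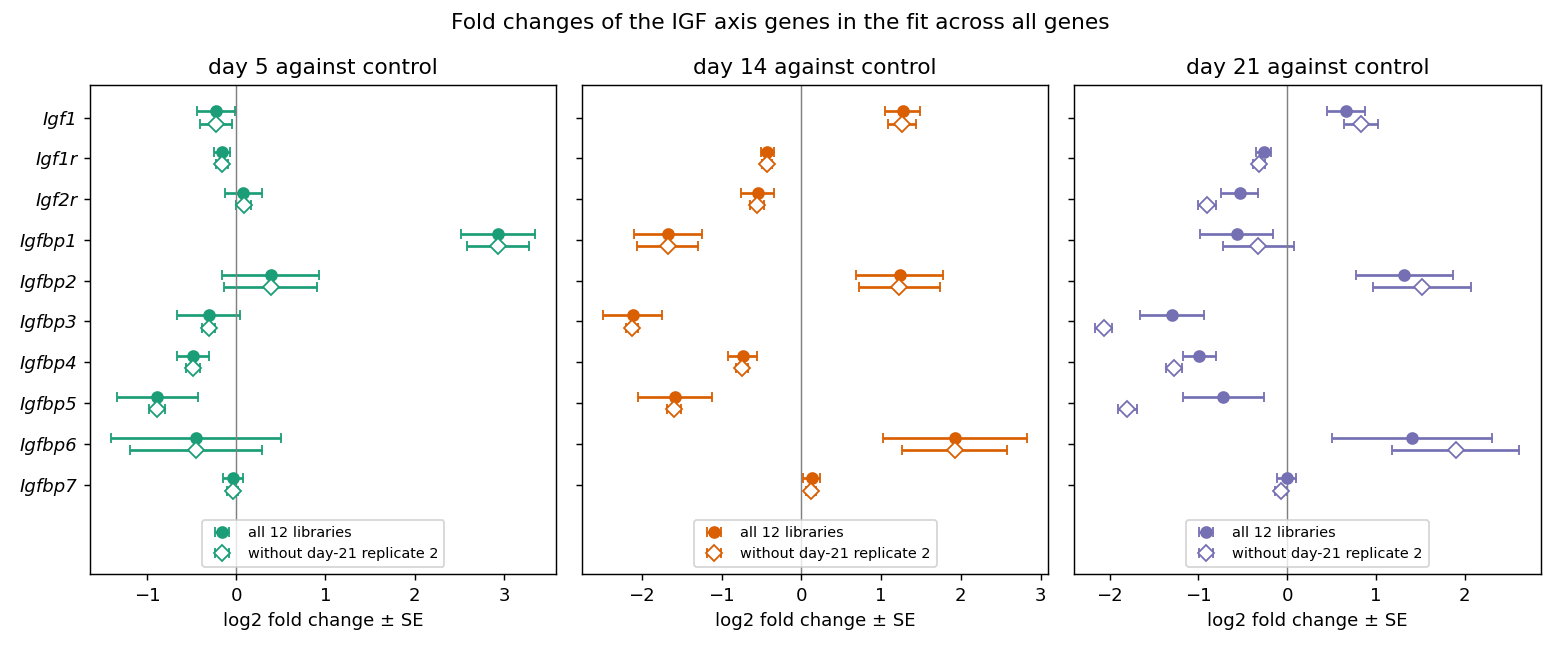
Log2 fold change ± SE of each gene against control at day 5, day 14 and day 21, from the fit of all 12 libraries (filled circles) and from the fit without day-21 replicate 2 (open diamonds). At day 21 the 2 fits lie far apart for Igfbp5, at -0.72 with all libraries and -1.80 without that one.

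Among the binding proteins, Igfbp1 changed most at day 5. Igfbp1 encodes a secreted binding protein known from liver, where insulin represses the gene and FOXO factors activate it. Its gene lies at chr11:7147782-7152546 (GRCm39, plus strand). Below are the 250 bases before the start of Igfbp1 and, for comparison, those of Igfbp3, its nearest neighbour with another time course, and of Igfbp4 and Igfbp5, which like Igfbp3 were lower at day 14. All run 5′ to 3′ on the gene's own strand and come from RefSeq on GRCm38.p6, an older build than that of the counts. Capitals mark a match to CAAAACA in Igfbp1 and to TATAAA in Igfbp4.
Igfbp1, chr11:7197537-7197786, plus strand: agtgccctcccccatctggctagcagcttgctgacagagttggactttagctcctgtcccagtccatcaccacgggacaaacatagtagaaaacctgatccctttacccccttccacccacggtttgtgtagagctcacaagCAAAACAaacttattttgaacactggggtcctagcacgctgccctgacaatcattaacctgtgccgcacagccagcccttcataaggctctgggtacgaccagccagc
Igfbp3, chr11:7213924-7214173, minus strand: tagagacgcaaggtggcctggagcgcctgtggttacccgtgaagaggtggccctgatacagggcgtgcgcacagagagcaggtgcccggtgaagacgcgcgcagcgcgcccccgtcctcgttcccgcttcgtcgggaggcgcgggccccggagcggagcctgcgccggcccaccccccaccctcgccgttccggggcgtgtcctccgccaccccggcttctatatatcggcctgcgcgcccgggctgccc
Igfbp4, chr11:99040994-99041243, plus strand: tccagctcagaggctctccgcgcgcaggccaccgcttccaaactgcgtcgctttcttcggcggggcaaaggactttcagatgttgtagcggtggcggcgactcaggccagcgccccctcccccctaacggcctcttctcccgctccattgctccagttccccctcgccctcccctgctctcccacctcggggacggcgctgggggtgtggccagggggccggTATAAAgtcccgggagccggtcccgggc
Igfbp5, chr1:72874866-72875115, minus strand: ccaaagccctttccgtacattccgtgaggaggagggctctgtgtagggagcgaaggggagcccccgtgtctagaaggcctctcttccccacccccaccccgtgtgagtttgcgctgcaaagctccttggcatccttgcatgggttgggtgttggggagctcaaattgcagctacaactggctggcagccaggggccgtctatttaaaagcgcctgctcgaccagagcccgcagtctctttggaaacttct

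A set of 4 motifs was searched on both strands in the 250 bases of all 10 genes, with 11 starts. CAAAACA, the core of the FOXO site known from IGFBP1 genes, occurred in 1 of them, Igfbp1, 108 bases before its start, and in 5.56% of 32851 RefSeq promoters. The letters TATAAA, which TBP is known to bind near start sites, began 28 bases before the start of Igfbp4, also occurred in Igfbp6 on the opposite strand at 148 bases, and occurred in 12.4% of promoters. The GC box GGGCGG occurred in Igfbp2, Igfbp7, Igf1r and Igf2r and in 32.7% of promoters, and the E box CACGTG in Igfbp2 and Igf2r and in 6.02%. Neither occurred in the 4 sequences above, and no motif overlapped another there. A match is a run of letters and not a shown binding site.

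Igfbp1 had 7.53, 3.53 and 7.01 CPM in the controls, 33.2, 49.8 and 54.7 CPM at day 5, 1.95, 2.36 and 1.36 CPM at day 14, and 6.95, 2.44 and 2.73 CPM at day 21. All day-5 libraries lay above, and all day-14 libraries below, every control, while day 21 overlapped the controls. Igfbp1 rose at day 5 (log2 fold change 2.93 ± 0.42 SE, a 7.62-fold difference) and fell at day 14 (-1.67 ± 0.43). Day 21 was not called, at -0.57 ± 0.41, or -0.33 ± 0.40 without replicate 2. Scaled by library totals, day 14 was not called for Igfbp1, at -0.95 ± 0.46. Set directly against day 5, day 14 was lower by far (-4.60 ± 0.46).

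Liver genes were read beside Igfbp1. Of 6 such genes (Alb, Apoa1, Apob, Ttr, Serpina1a and Cyp3a11), 2 rose at day 5 and 5 fell at day 14, and 5 were tested. Their summed level ran from 532 to 629 CPM at day 5, against 396 to 440 CPM in controls, and from 113 to 124 CPM at day 14. The 2 that rose at day 5 were Serpina1a, at a mean of 254 CPM at day 5 and 129 CPM in controls (0.97 ± 0.29), and Apoa1, at 1.22 and 0.46 CPM (1.39 ± 0.30). Apob averaged 288 CPM at day 5 and 232 CPM in controls, Ttr 46.5 and 42.9 CPM, Alb 2.95 and 7.13 CPM, and Cyp3a11 0.052 and 0.060 CPM. At most 1 of the 6 was at 0 in a library. The part of these genes in the Igfbp1 values was not tested.

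Igfbp3 encodes the main carrier of IGF in blood, which binds it together with the acid-labile subunit. It lies at chr11:7156086-7163923 (minus strand), with its end 3539 bases from the end of Igfbp1 and no gene of the table between them. Igfbp3 had 214, 189 and 210 CPM in controls, 154, 176 and 165 CPM at day 5, 46.3, 46.7 and 48.5 CPM at day 14, and 45.3, 152 and 52.7 CPM at day 21. Each day's libraries lay below all controls, and day-21 replicate 2 was far above the other two.

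Igfbp3 fell at day 14 (-2.12 ± 0.37, a mean of 47.2 CPM against 204 CPM in controls) and at day 21 (-1.30 ± 0.36, and -2.07 ± 0.09 without replicate 2). At day 5 it was -0.31 ± 0.35 and not called, although without day-21 replicate 2 the same value with an SE of 0.08 was called. Without day-21 replicate 3 the day-21 call was lost, at -1.06.

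Igfbp4, at chr11:98932070-98945218 (plus strand), encodes a binding protein known to hold back IGF until the protease PAPP-A cuts it. It had 494, 569 and 596 CPM in controls, 368, 412 and 405 CPM at day 5, 313, 347 and 336 CPM at day 14, and 230, 377 and 228 CPM at day 21. No library of any day reached the lowest control. Igfbp4 fell at day 14 (-0.74 ± 0.18) and at day 21 (-0.99 ± 0.18, and -1.28 ± 0.09 without replicate 2), but with library totals the Igfbp4 difference at day 14 was -0.01 ± 0.12. Day 5 was not called at -0.48 ± 0.18, and was called without day-21 replicate 2, at -0.48 ± 0.08.

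Igfbp5, at chr1:72897091-72914043 (minus strand), encodes a binding protein that also attaches to extracellular matrix. It had 309, 301 and 287 CPM in controls, 155, 164 and 167 CPM at day 5, 90.4, 98.3 and 110 CPM at day 14, and 95.3, 371 and 77.5 CPM at day 21. All libraries of days 5 and 14 lay below the controls, whereas day-21 replicate 2 lay above them and the other 2 day-21 libraries far below.

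Igfbp5 fell at day 14 (-1.59 ± 0.46). The day-5 value of -0.88 ± 0.46 and the day-21 value of -0.72 ± 0.46 were not called with all libraries. Without day-21 replicate 2 they were -0.88 ± 0.09 and -1.80 ± 0.11 and both were called. The SE at day 5 was thus 0.46 with that library and 0.09 without it, at almost the same fold change.

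Markers of other kidney cells were set beside Igfbp3, Igfbp4 and Igfbp5. The summed level of 6 proximal tubule markers (Slc34a1, Lrp2, Slc5a2, Slc5a12, Slc22a6 and Cyp2e1) was 5464 to 6339 CPM at day 5, 1132 to 1156 CPM at day 14 and 1043 to 6526 CPM at day 21, against 8630 to 9267 CPM in controls. All 6 fell at day 14 and 3 at day 21. Of 6 endothelial markers 4 fell at day 14, with a summed level of 167 to 179 CPM, against 252 to 273 CPM in controls, but by library totals their sum was higher, at 219 to 236 CPM without TMM factors, against 202 to 218 CPM in controls. Distal and collecting duct markers went both ways. Of 6 (Umod, Slc12a1, Slc12a3, Aqp2, Fxyd4 and Calb1), 3 fell at day 5, 4 fell at day 14, and 2 rose (Aqp2 and Fxyd4) and 2 fell (Umod and Slc12a1) at day 21. Their sum was 4743 to 5264 CPM at day 5, 2436 to 2712 CPM at day 14 and 3592 to 5001 CPM at day 21, against 5544 to 5910 CPM in controls. By library totals 2 of the 6 rose and 3 fell at day 14. The part of these cell types in the 3 binding protein values was not tested.

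Igfbp2 encodes a binding protein prominent in fetal tissue. It lies at chr1:72863662-72891633 (plus strand), end to end with Igfbp5 at a gap of 5457 bases with no gene of the table between. Igfbp2 had 2.28, 5.94 and 1.91 CPM in controls, 3.33, 5.76 and 4.13 CPM at day 5, 9.70, 11.3 and 2.80 CPM at day 14, and 7.27, 5.81 and 12.2 CPM at day 21. Every day overlapped the controls. Its log2 fold changes of 0.38 ± 0.55, 1.23 ± 0.54 and 1.32 ± 0.54 at days 5, 14 and 21 were not called, and without day-21 replicate 2 the day-21 value was 1.52 ± 0.55 and called.

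Libraries of 1 group differed in Igfbp2 along with markers of tissue around the kidney. The 6 adipocyte markers (Adipoq, Plin1, Cidec, Lep, Fabp4 and Cfd) summed to 598, 593 and 49.0 CPM in day-14 replicates 1, 2 and 3, and Igfbp2 was low in replicate 3. In controls they summed to 92.1, 232 and 54.1 CPM, and at day 5 to 46.3, 314 and 71.6 CPM, with Igfbp2 highest in replicate 2 of both. Day-21 libraries had 28.4, 46.5 and 437 CPM, with Igfbp2 highest in replicate 3. The order did not hold throughout, since replicate 1 had the lowest sum but more Igfbp2 (7.27 CPM) than replicate 2 (5.81 CPM). Of the 6 markers, 0 to 3 were at 0 in a library, and their part in the Igfbp2 values was not tested.

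The 2 genes most like Igfbp2 over the 12 libraries were Upk3a, which encodes a plaque protein of the urothelium, and Krt5, a keratin of basal epithelium (Pearson r of log2 CPM 0.925 and 0.901). Upk3a had 7.60, 8.42 and 2.07 CPM at day 14, against 1.57, 3.43 and 2.19 CPM in controls. Krt5 had 7.74, 8.10 and 2.36 CPM at day 14, against 0.653, 3.04 and 1.51 CPM in controls. Both were low in day-14 replicate 3 and highest among controls in replicate 2, as Igfbp2 was. Since they were picked for their likeness to Igfbp2 over these same libraries, this is no separate observation.

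**Figure D3:**
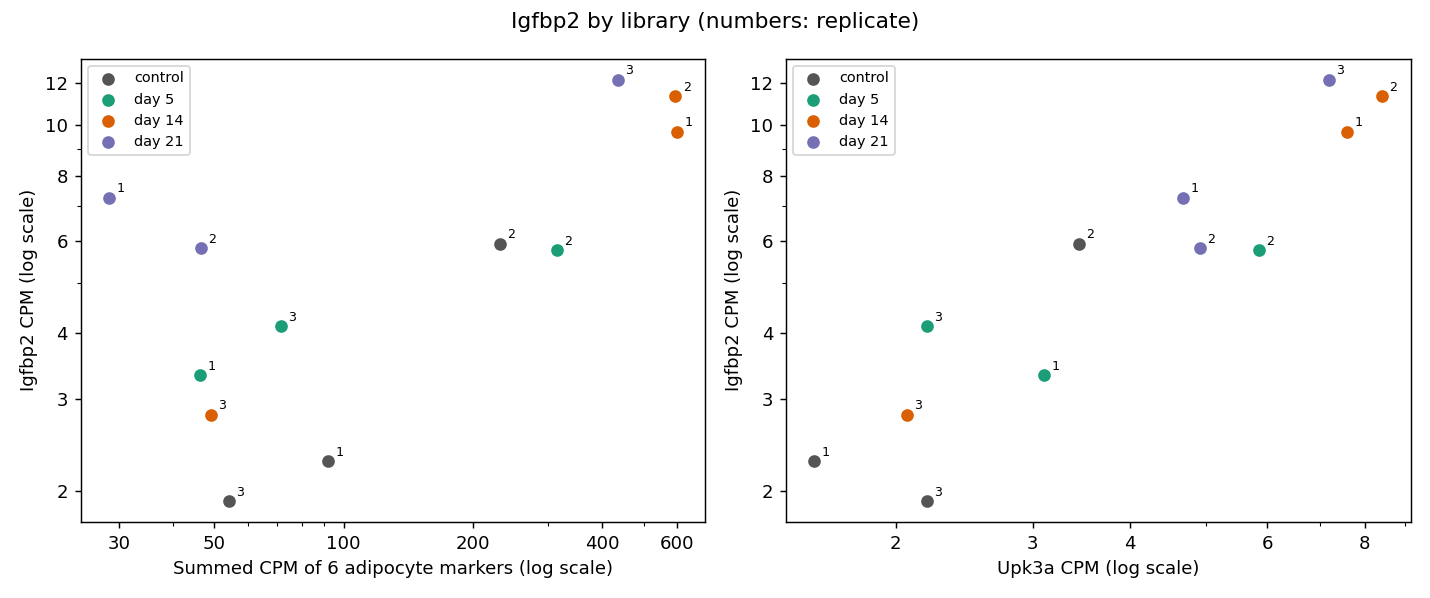
Igfbp2 against the summed level of 6 adipocyte markers (left) and against Upk3a (right), in CPM on log axes, 1 point per library with its replicate number. Day-14 replicate 3, at 2.80 CPM of Igfbp2, lies far from day-14 replicates 1 and 2, at 9.70 and 11.3 CPM, in both panels. Upk3a was picked for its likeness to Igfbp2 over these same libraries.

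Igfbp6, at chr15:102052797-102057946 (plus strand), encodes a binding protein that prefers IGF2. It had 2.02, 0.42 and 0.49 CPM in controls, 0.26, 1.59 and 0.29 CPM at day 5, 3.38, 3.34 and 4.53 CPM at day 14, and 2.06, 0.35 and 5.31 CPM at day 21. The day-14 libraries lay above all controls, but the other days overlapped them, and the controls held 98 counts in all. The day-14 value of 1.93 ± 0.90 was not called and was called without day-21 replicate 2 (1.92 ± 0.66). At day 21 it was 1.40 ± 0.90 and not called, and 1.90 ± 0.71 and called without replicate 2. At day 5 it was -0.45 ± 0.95 and not called.

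The 6 fibroblast and matrix markers (Col1a1, Col1a2, Col3a1, Dcn, Lum and Postn) all rose at day 14 and day 21, to a summed level of 1030 to 1080 CPM at day 14 and 319 to 883 CPM at day 21, against 99.3 to 163 CPM in controls. They were also higher at day 5, at 238 to 369 CPM, where 2 of them rose. Of 6 mesangial and stromal markers (Pdgfrb, Pdgfra, Acta2, Des, Itga8 and Gata3), 4 rose at day 14 and 5 at day 21, with a summed level of 301 to 304 CPM at day 14, against 101 to 129 CPM in controls. Of the 3 day-5 libraries, replicates 1 and 3 had less Igfbp6 than every control. The part of these cells in the Igfbp6 values was not tested.

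Igfbp7 encodes a protein of vascular basement membrane with low affinity for IGF, and its product in urine is used as a marker of tubular stress. It lies at chr5:77497087-77555888 (minus strand), and its end overlaps that of Polr2b on the opposite strand. Gm34648, also on that strand, lies within it and had 0 or 1 counts per library. Igfbp7 had 983, 925 and 971 CPM in controls, 959, 898 and 943 CPM at day 5, 1058, 1036 and 1053 CPM at day 14, and 969, 1025 and 871 CPM at day 21. Day 14 lay above all controls by a small margin. Its log2 fold changes of -0.04 ± 0.11, 0.13 ± 0.11 and -0.01 ± 0.11 were not called. Without day-21 replicate 2 the day-21 value was -0.07 ± 0.07 and not called. With library totals alone the Igfbp7 values at days 14 and 21 became 0.86 ± 0.11 and 0.46 ± 0.11, both called.

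As a share of the summed CPM per kb of the 7 binding proteins, Igfbp7 made up 80.1% at day 5, 89.1% at day 14 and 87.0% at day 21, against 77.4% in controls. Igfbp1 made up 3.13% at day 5, 0.13% at day 14 and 0.30% at day 21, against 0.38% in controls. Igfbp3 had 5.47%, 1.55% and 2.79% at days 5, 14 and 21, against 6.37% in controls. In day-21 replicate 2 the Igfbp7 share was 81.7%, against 90.3% and 89.1% in the other two. The summed level itself averaged 963, 974 and 912 CPM per kb at days 5, 14 and 21, against 1026 CPM per kb in controls.

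**Figure D4:**
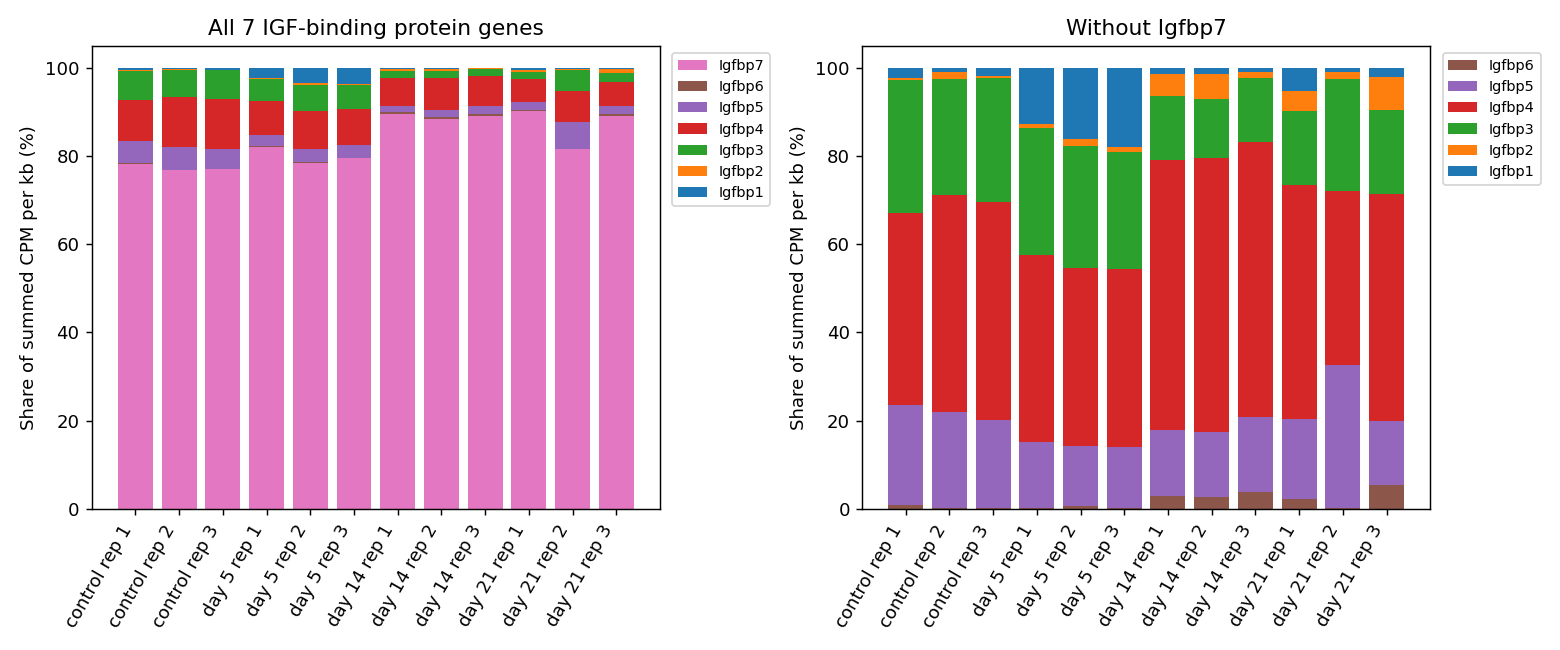
Shares of the 7 IGF-binding protein genes in their summed CPM per kb (%), 1 bar per library, with all 7 genes (left) and without Igfbp7 (right). Igfbp7 takes most of each left bar, between 76.9% and 90.3%, and Igfbp1 takes 12.7%, 16.1% and 18.0% of the right bars at day 5.

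The growth factor and receptors followed. Igf1, at chr10:87694127-87772904 (plus strand), had 12.7, 7.44 and 9.08 CPM in controls, 7.06, 10.1 and 7.82 CPM at day 5, 23.9, 23.9 and 22.7 CPM at day 14, and 16.6, 11.5 and 18.2 CPM at day 21. Day 14 lay above all controls, with an SD of 0.659 CPM, and day 21 overlapped the controls through replicate 2. Igf1 rose at day 14 (1.27 ± 0.22, or 2.41-fold) and at day 21 (0.66 ± 0.21, and 0.83 ± 0.19 without replicate 2). The day-21 call for Igf1 was lost without control replicate 2 or 3 or day-21 replicate 1 or 3, with values from 0.46 to 0.61.

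Fibroblast and matrix markers and most mesangial and stromal markers, given above, rose at days 14 and 21, as Igf1 did. Macrophage markers also rose with Igf1. The 6 (Adgre1, Csf1r, Cd68, Lyz2, C1qa and Mrc1) had a summed level of 660 to 684 CPM at day 14 and 199 to 381 CPM at day 21, against 66.8 to 88.0 CPM in controls, and all 6 rose at day 14 and 5 at day 21. At day 5 they summed to 63.9 to 72.7 CPM, with 1 rising (Cd68) and 1 falling (Csf1r). Igf1os, which overlaps Igf1 on the other strand, had at most 3 counts in a library. The part of macrophages or of these other cells in the Igf1 values was not tested.

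Igf1r, at chr7:67602575-67883416 (plus strand), encodes the receptor that IGF1 signals through. It had 163, 161 and 168 CPM in controls, 140, 155 and 144 CPM at day 5, 121, 118 and 126 CPM at day 14, and 125, 145 and 140 CPM at day 21. Every library of each day lay below all controls, by a small margin at days 5 and 21. Igf1r fell at day 14 (-0.43 ± 0.09) and at day 21 (-0.26 ± 0.09, and -0.32 ± 0.07 without replicate 2), but with library totals alone both turned, to 0.30 and 0.21. Day 5 was not called (-0.16 ± 0.09). At day 21 the Igf1r call was lost without control replicate 1 or 3, or day-21 replicate 1, with values from -0.31 to -0.20, and without a filter on low counts, at -0.27.

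Igf2r encodes the receptor that takes up IGF2 for breakdown and carries lysosomal enzymes. It lies at chr17:12901293-12988551 (minus strand). Igf2r had 114, 130 and 124 CPM in controls, 118, 142 and 129 CPM at day 5, 87.0, 83.1 and 81.1 CPM at day 14, and 71.6, 122 and 60.1 CPM at day 21. Day 14 and day-21 replicates 1 and 3 lay below the controls, and replicate 2 lay within them.

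Igf2r fell at day 14 (-0.55 ± 0.21), though leaving out any 1 of its 6 libraries ended this call, with values from -0.64 to -0.53, and with library totals alone the value turned, to 0.18 ± 0.13. At day 21 it was -0.54 ± 0.21 and not called, and -0.90 ± 0.10 and called without replicate 2. At day 5 it was 0.08 ± 0.21. Airn, an antisense transcript known to silence Igf2r on the paternal allele, overlaps it with 39 to 211 counts per library. Because the strand setting is not given, shared reads of the 2 cannot be told apart.

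Day 14 set against day 5 called 5 of the 10, beside 50.9% of all genes, 24.7% higher and 26.1% lower. Igf1 rose (1.50 ± 0.22), and Igfbp1, Igfbp3 (-1.81 ± 0.36), Igf2r (-0.63 ± 0.21) and Igf1r (-0.26 ± 0.09) fell. With library totals alone the Igf1r value turned to 0.32, and the Igf2r value was -0.05 ± 0.13 and not called. Without day-21 replicate 2, 9 were called, beside 59.6%. Day 21 against day 14 called 0 of the 10 with edgeR, beside 14.6% of all genes, 7.03% higher and 7.57% lower. DESeq2 called 2, beside 21.5% of all genes, and limma-voom called 1, beside 15%. Without day-21 replicate 2, 3 were called, beside 23.9%, with Igfbp1 higher (1.35 ± 0.42) and Igfbp4 (-0.53 ± 0.09) and Igf2r (-0.35 ± 0.10) lower at day 21.

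By likeness of log2 CPM over the 12 libraries, which share depth and group differences, the genes nearest to Igf1 were Pot1b and Pid1 (Pearson r 0.974 each). Those nearest to Igf1r were Rabl6 (0.973) and Nprl2 (0.971), and to Igf2r Cgnl1 (0.989) and Dnajc13 (0.986). Nearest to Igfbp1 were Suco (0.969) and Cep76 (0.962), and to Igfbp3 Csad (0.997) and Aspdh (0.997). Igfbp4 had Mapre2 (0.992) and 1600014C10Rik (0.976), Igfbp5 had Neurl4 (0.980) and Tmem69 (0.974), Igfbp6 had Rasgrp2 (0.949) and Amer1 (0.942), and Igfbp7 had Tmem229b (0.901) and Aplp1 (0.892). Over 11 libraries, without day-21 replicate 2, all stayed between 0.897 and 0.997.

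Another 48 genes of the IGF pathway were listed by role, of which 46 were tested. Of these 7 rose and 2 fell at day 5, 18 rose and 15 fell at day 14, and 15 rose and 14 fell at day 21, beside 14.9%, 60% and 42.8% of all tested genes called. The counts by role below stand beside the same shares. The median log2 fold changes of the 46 were 0.06, -0.06 and -0.06. Without day-21 replicate 2 the counts were 11 and 7 at day 5, 18 and 17 at day 14, and 18 and 18 at day 21. That fit called 32.3%, 65.6% and 61.6% of all tested genes. With library totals alone 6 rose and 1 fell at day 5, and 35 rose and 4 fell at day 14. At day 21, 25 rose and 3 fell. That scaling called 12.5%, 77.5% and 63.1% of all tested genes, and 77.7%, 85.6% and 88.3% of those were higher. Role counts under that scaling, below, stand beside these shares. Of the values printed below and called with all 12 libraries and TMM factors, all kept their sign under that scaling. At day 5 Stc2, Grb10, Pik3r2 and Eif4ebp1 were then not called (0.89 ± 0.28, 0.54 ± 0.19, -0.19 ± 0.15 and 1.17 ± 0.37). Some genes that are only counted by role turned. Among them, Htra1, Insr and Pik3ca fell at day 14 with TMM factors (-0.40 ± 0.09, -0.38 ± 0.10 and -0.45 ± 0.10). By library totals these 3 were called higher (0.33 ± 0.09, 0.35 ± 0.10 and 0.27 ± 0.08). Members of each role were tested by edgeR over all genes, and values in parentheses are log2 fold changes ± SE.

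Of 8 tested genes for ligands, carriers and proteases, 3 rose at day 5, 5 rose and 1 fell at day 14, and 5 rose and 1 fell at day 21. Scaled by library totals, 4, 7 and 5 rose at days 5, 14 and 21, and 0 fell. Pappa, the protease that cuts IGFBP4, had 11.2, 10.5 and 11.6 CPM at day 5, 11.9, 13.0 and 13.6 CPM at day 14, and 16.3, 14.3 and 14.7 CPM at day 21, against 5.25, 5.57 and 7.22 CPM in controls. It rose on every day (log2 fold change 0.88 ± 0.13, 1.09 ± 0.13 and 1.33 ± 0.13), with no overlap with controls. Pappa2, which cuts IGFBP3 and IGFBP5, had 2.87, 2.38 and 3.02 CPM at day 5, against 0.534, 0.271 and 0.525 CPM in controls, and rose (2.63 ± 0.45). It also rose at day 14 (2.17 ± 0.44) and day 21 (1.76 ± 0.45).

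The stanniocalcins Stc1 and Stc2 encode inhibitors of these proteases. Stc2 had 9.68, 8.67 and 9.84 CPM at day 14, against 1.72, 2.02 and 1.94 CPM in controls (2.31 ± 0.20). Stc1 had 11.6, 10.2 and 11.9 CPM at day 21, against 2.91, 2.92 and 4.38 CPM in controls (1.72 ± 0.18). Both lay above every control. Stc2 also rose at day 5 (0.74 ± 0.20) and day 21 (1.47 ± 0.20), and Stc1 at day 14 (0.98 ± 0.18). Igf2, the other ligand, had between 0.463 and 1.09 CPM in all libraries, and its values at days 5, 14 and 21 (-0.18 ± 0.29, -0.34 ± 0.29 and -0.73 ± 0.30) were not called, and with library totals the Igf2 value at day 14 turned to 0.38 ± 0.32. Those of Igfals, the acid-labile subunit, were 0.54 ± 0.27, -0.23 ± 0.27 and -0.39 ± 0.27 and also not called. Igfals depended on the fit. Without day-21 replicate 2 it was called higher at day 5 (0.54 ± 0.14) and lower at day 21 (-0.84 ± 0.17). With library totals it was called higher at day 5 (0.68 ± 0.20) and, turned, at day 14 (0.50 ± 0.20), and was 0.02 ± 0.20 at day 21.

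Among 9 receptor and growth hormone genes, 1 fell at day 5, 3 rose and 4 fell at day 14, and 2 rose and 4 fell at day 21. Scaled by library totals, 1 fell at day 5, 5 rose and 2 fell at day 14, and 3 rose and 2 fell at day 21. Insrr, a receptor kinase of the insulin receptor family, had 4.05, 3.93 and 4.38 CPM at day 14, against 23.6, 19.1 and 22.5 CPM in controls, and fell at day 14 (-2.40 ± 0.18) and day 21 (-1.33 ± 0.18). Cish, a feedback inhibitor induced by growth hormone, had 6.83, 6.35 and 6.27 CPM at day 5, against 19.6, 35.6 and 16.5 CPM in controls, and fell (-1.88 ± 0.31). Socs2, another such inhibitor, rose at day 21 (2.30 ± 0.46), with 68.2, 24.7 and 79.2 CPM, against 18.7, 10.9 and 5.28 CPM in controls. It also rose at day 14 (2.02 ± 0.46). Lrp1, an endocytic receptor, rose at day 14 (1.84 ± 0.31).

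Of 16 tested adaptor, PI3K and AKT genes, 1 rose and 1 fell at day 5, 7 rose and 5 fell at day 14, and 6 rose and 5 fell at day 21. These counts depended on the scaling. By library totals 0, 13 and 11 rose at days 5, 14 and 21, and 0 fell. Pik3cd, a PI3K subunit of blood cells, rose at day 14 (2.62 ± 0.22) and day 21 (1.46 ± 0.21), as did the macrophage markers above. Grb10, an adaptor that restrains the receptor, rose at day 5 (0.40 ± 0.11), day 14 (1.07 ± 0.11) and day 21 (0.47 ± 0.11). The regulatory subunit Pik3r2 fell at day 5 (-0.34 ± 0.08), and Pik3r3 rose at day 14 (0.75 ± 0.12) and day 21 (0.81 ± 0.12).

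FOXO and mTOR genes numbered 10, of which 2 rose at day 5, 2 rose and 4 fell at day 14, and 1 rose and 4 fell at day 21. Scaled by library totals, 1 rose at day 5, 8 rose and 1 fell at day 14, and 5 rose and 1 fell at day 21. Mtor, the kinase itself, had 65.1, 59.1 and 60.3 CPM at day 14, against 242, 180 and 239 CPM in controls, and fell at day 14 (-1.84 ± 0.29) and day 21 (-1.48 ± 0.28). Eif4ebp1, a translation inhibitor that mTOR switches off, rose on all days (1.03 ± 0.29, 1.66 ± 0.29 and 1.50 ± 0.29). Foxo3, a factor held out of the nucleus by AKT, had 126, 133 and 130 CPM at day 5, against 69.8, 62.8 and 96.6 CPM in controls, and rose (0.76 ± 0.16).

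Of the 3 genes for IGF2 mRNA-binding proteins, Igf2bp2 rose on all days (1.31 ± 0.17, 1.67 ± 0.17 and 1.10 ± 0.17), with 12.6, 11.9 and 10.7 CPM at day 5, against 4.12, 5.57 and 4.51 CPM in controls. Igf2bp1 fell at day 14 (-2.87 ± 0.59). Without day-21 replicate 2, these day-21 values were larger in size, with Pappa at 1.35 ± 0.13, Stc1 at 1.78 ± 0.18, Insrr at -1.60 ± 0.12, Socs2 at 2.65 ± 0.34, Pik3cd at 1.63 ± 0.18, Pik3r3 at 0.93 ± 0.09, Mtor at -1.96 ± 0.17, Eif4ebp1 at 1.81 ± 0.14 and Igf2bp2 at 1.27 ± 0.13.

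**Figure D5:**
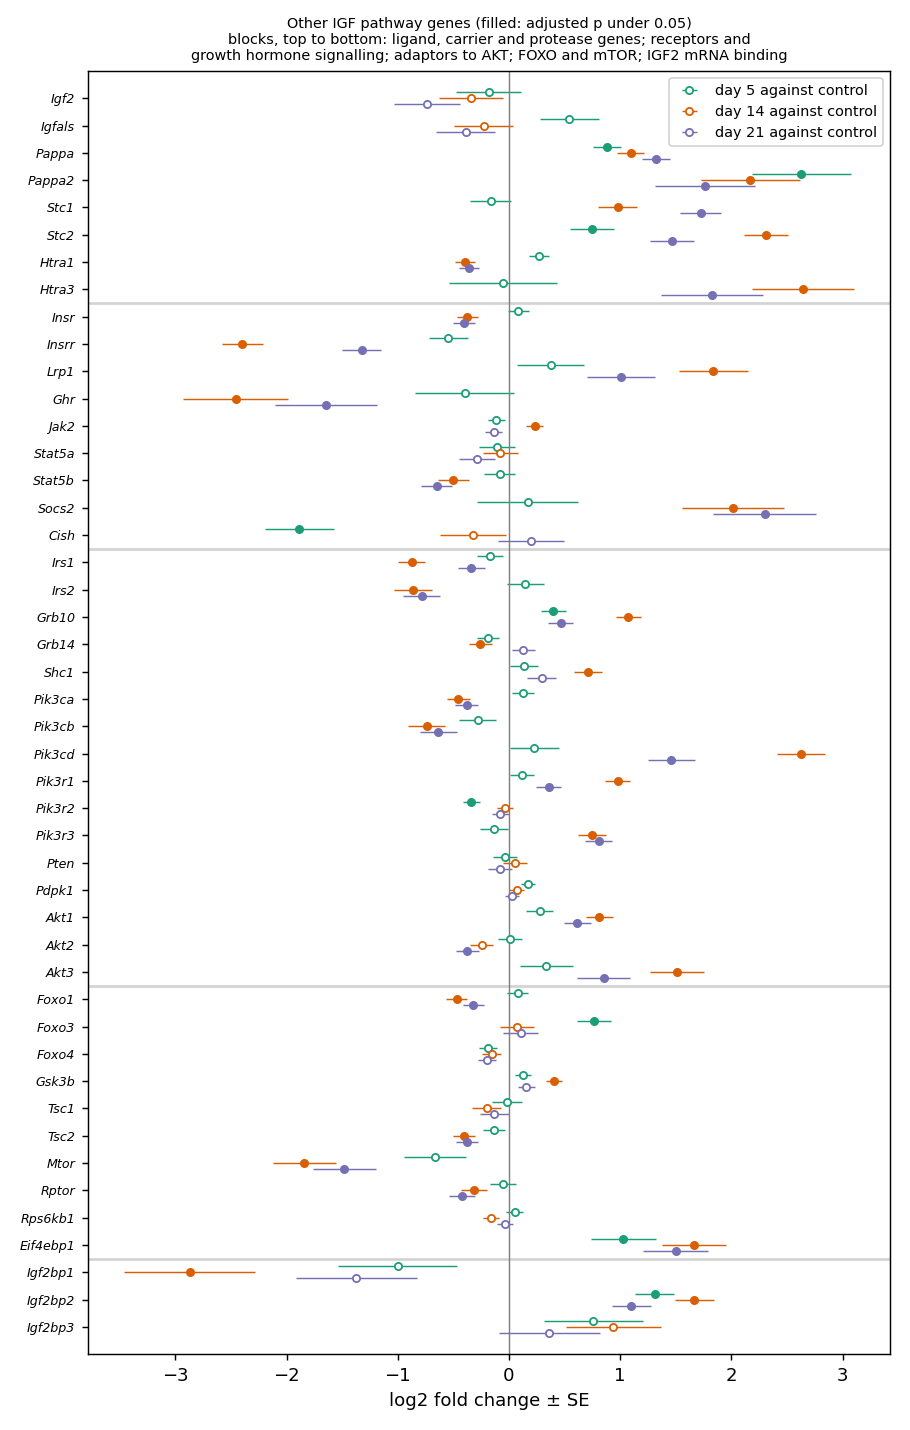
Log2 fold change ± SE of the 46 tested genes of the IGF pathway outside the set, against control at day 5, day 14 and day 21; filled points were called at an adjusted p under 0.05 and open ones were not. Pappa and Igf2bp2 are filled on the right on all 3 days, and Mtor and Insrr on the left at days 14 and 21.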

How the data were processed

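The authors deposited 1 table of raw read counts per gene for 12 libraries, with symbols, coordinates and exon lengths (Length column). Per the submitters' processing notes, reads were handled with fastp 0.20.0 and featureCounts on GRCm39. Per the labels' protocols, RNA came from whole kidney and was poly(A) selected. No source used here gives the aligner, annotation release, strand setting or handling of multi-mapping reads. Of the counts, 2.14% fell in genes without a symbol.

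Sample titles gave the groups and replicate numbers. The members and lists were chosen with earlier results of these data known. Genes were kept by filterByExpr (19821), scaled by TMM and fitted over all 12 libraries with 1 coefficient per group by edgeR 4.0.16 (quasi-likelihood) in R 4.3.3, with limma 3.58.1. P-values were adjusted by Benjamini-Hochberg over all tested genes, and a gene was called under 0.05. The SE is the size of the log2 fold change over the root of its F statistic. Levels per kb divide CPM by exon length. With 3 libraries per group, p-values cover the spread between these mice. The procedure was tested on simulated data.

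Named were all members, Nphs1 as a check of the labels (1 other gene of this rule is not reported here), in each pathway role list the 2 called genes with the smallest adjusted p per comparison with control, the 2 genes most like each member, and genes overlapping a member. Other genes named in the text were chosen after their values were seen. Alternatives were median-of-ratios factors, library totals, DESeq2 1.42.0, limma-voom, 2 other filters, the replicate number as a block, fits of 6 libraries and leaving out each library. Library totals for pathway, marker and overlapping genes, and pathway values without day-21 replicate 2, were added after seeing the data. Same-numbered libraries of different groups correlated between -0.14 and 0.17 in their deviations from group means, over 18 pairs. Differently numbered libraries of different groups correlated between -0.18 and 0.20, over 36 pairs.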

Additional observations from a re-analysis of the deposited data

Results flagged for a closer look

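Between day 14 and day 5, the contrast of the edgeR fit itself called 5 of the 10 genes, beside 50.9% of all tested genes. This share is near the background, and the genes were chosen with these comparisons known, so the values are a description. On the log2 scale the difference, day 14 minus day 5, was 1.50 for Igf1 (1.27 at day 14 and -0.23 at day 5 against control). It was -0.26 for Igf1r (-0.43 and -0.16) and -0.63 for Igf2r (-0.55 and 0.08). With library totals these 2 differences were 0.32 and -0.05. It was -4.60 for Igfbp1 (-1.67 and 2.93) and -1.81 for Igfbp3 (-2.12 and -0.31). The controls cancel in this difference. Groups of 3 libraries were too small for a test of single outlying libraries.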

How the results depend on the processing

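Over all alternatives, 56 of 730 values of the 10 genes gained a call and 32 lost one, with their sign kept. Counted as unchanged were 630. That count takes in uncalled values whose sign changed by less than their SE in the edgeR fit with TMM factors. A further 5 uncalled values changed sign by more, and 7 values called in either fit turned. With library totals alone these were Igf1r (0.30 at day 14, 0.21 at day 21, 0.32 for day 14 against day 5), Igf2r at day 14 (0.18), Igfbp4 for day 14 against day 5 (0.33) and Igfbp7 at day 21 (0.46); without day-21 replicate 2, Igf2r for day 21 against day 14 was -0.35. The cause was not tested. Fits of only the 6 libraries compared, which have fewer libraries, called 6982 genes at day 5, 1631 at day 21 and 263 for day 21 against day 14. They called 5, 0 and 9 of the 10 at day 5, at day 21 and for day 14 against day 5, beside 38.4%, 8.9% and 67.2% of all genes. DESeq2 called 2 at day 5 (19.5% of all genes) and 2 for day 21 against day 14 (21.5%). Library totals called 8 for day 14 against day 5 (67.6%) and 2 for day 21 against day 14 (16.3%), where limma-voom called 1 (15%). Leaving out single libraries gave 1570 to 6691 genes at day 5, 4918 to 12738 at day 21 and 852 to 4951 for day 21 against day 14. Of the 10 it gave 1 to 4, 2 to 8 and 0 to 3, and 3 to 9 for day 14 against day 5. The highest counts came without day-21 replicate 2. The numbers share no source in the labels, and with the replicate block 7 of the 10 were called at day 14 (58.9% of all genes), 1 at day 5 (13.4%) and 5 at day 21 (41.5%). Depth limits Igfbp6 most, with 98 counts in the controls together.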

Other observations

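Airn, the antisense transcript over Igf2r, had 211, 180 and 191 counts in controls, 39, 99 and 113 at day 5, 61, 61 and 44 at day 14, and 95, 119 and 54 at day 21. By the edgeR fit it fell at day 5 (log2 fold change -1.37 ± 0.37 SE, adjusted p = 0.0309), day 14 (-2.23 ± 0.38, adjusted p = 0.000611) and day 21 (-1.26 ± 0.37, adjusted p = 0.0207), and no library of these days reached a control in CPM. With library totals Airn was -1.22, -1.50 and -0.85 at days 5, 14 and 21. Igf2r itself was 0.08 ± 0.21 at day 5. Polr2b, which overlaps the end of Igfbp7, fell at day 14 (-0.47 ± 0.12) and day 21 (-0.49 ± 0.13), but with library totals the Polr2b value at day 14 turned, to 0.26 ± 0.07, and that at day 21 was -0.05 ± 0.07. At those days Igfbp7 was 0.13 ± 0.11 and -0.01 ± 0.11. Which strand the counts of these pairs come from was not tested.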
